A study of Homo sapiens with 4 samples.

Results

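The genes described here make up the protein folding machinery of the endoplasmic reticulum (ER) and the unfolded protein response that adjusts it. They were chosen by name, as a list of 39 gene symbols, and 38 of them were found among the 24940 genes of the deposited table. WFS1 is not analysed here. RNA-seq read counts and FPKM values were available for 4 libraries of MOLM-13, a line established from a patient with acute myeloid leukaemia, with 1 library per group. The first group, sh-c-Myc_sh-Bcl2, carried short hairpins against both c-Myc and Bcl-2 and is called the double knockdown below. The others carried a hairpin against c-Myc alone (sh-c-Myc), a hairpin against Bcl-2 alone (sh-Bcl2) or a negative control hairpin (shControl). All 4 groups, shControl included, were lentivirally infected, drug-selected and induced with doxycycline, and the labels do not say whether a line is 1 clone. The design asks what the loss of c-Myc, of Bcl-2 or of both does to the transcriptome of these cells.

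Proteins bound for the cell surface or for secretion enter the ER through the Sec61 translocon, fold with the help of chaperones and disulfide enzymes, and leave in COPII vesicles. Proteins that fail to fold are returned to the cytosol and degraded (ER-associated degradation, ERAD). When unfolded proteins build up, the sensors IRE1 (gene ERN1), PERK (EIF2AK3) and ATF6 raise chaperone transcription through the transcription factors XBP1 and ATF6, and hold back translation through PERK.

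The libraries held 15494138 counts in the double knockdown, 14421558 in sh-c-Myc, 15691129 in sh-Bcl2 and 14825763 in shControl. BCL2 had 44.5 CPM in the double knockdown, 112 CPM in sh-c-Myc, 38.7 CPM in sh-Bcl2 and 120 CPM in shControl. MYC had 302 CPM in the double knockdown, 278 CPM in sh-c-Myc, 364 CPM in sh-Bcl2 and 434 CPM in shControl, so each targeted transcript was lower in both libraries that carry its hairpin, by less for MYC. All 12 genes of a myeloid marker list were present. Their summed level was 2998 CPM in the double knockdown and 3109 CPM in sh-c-Myc, against 1655 CPM in sh-Bcl2 and 1390 CPM in shControl, and CD14 stayed between 0.78 and 1.22 CPM. Plasma cells, the blood cells richest in ER, left no more than 0.142 CPM over the 3 of 6 markers listed in the table, with JCHAIN and MZB1 at 0 in every library but shControl. B cell markers summed to between 2.51 and 5.26 CPM, and erythroid, epithelial and fibroblast markers to at most 1.15 CPM.

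Levels between genes were compared as FPKM, fragments per kilobase of exon scaled to library size. CALR, the lectin chaperone calreticulin, was the most abundant of the 38 transcripts in every library, with 289 FPKM in the double knockdown, 206 in sh-c-Myc, 468 in sh-Bcl2 and 506 in shControl. HSP90B1, the ER form of HSP90, stood next with 214 FPKM in the double knockdown, 153 in sh-c-Myc, 207 in sh-Bcl2 and 162 in shControl. These 2 chaperones, with calnexin (CANX), XBP1 and BiP (HSPA5), formed the abundant end of the list. At the other end, TXNDC5, a disulfide isomerase, had between 0.111 and 0.508 FPKM, which rests on 7 to 35 reads. Among the 3 stress sensors the messages for IRE1 and PERK were scarce, at 2.55 to 4.68 FPKM for ERN1 and 2.62 to 3.15 FPKM for EIF2AK3, whereas ATF6 had 12.1 to 16.5 FPKM.

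**Figure D1:**
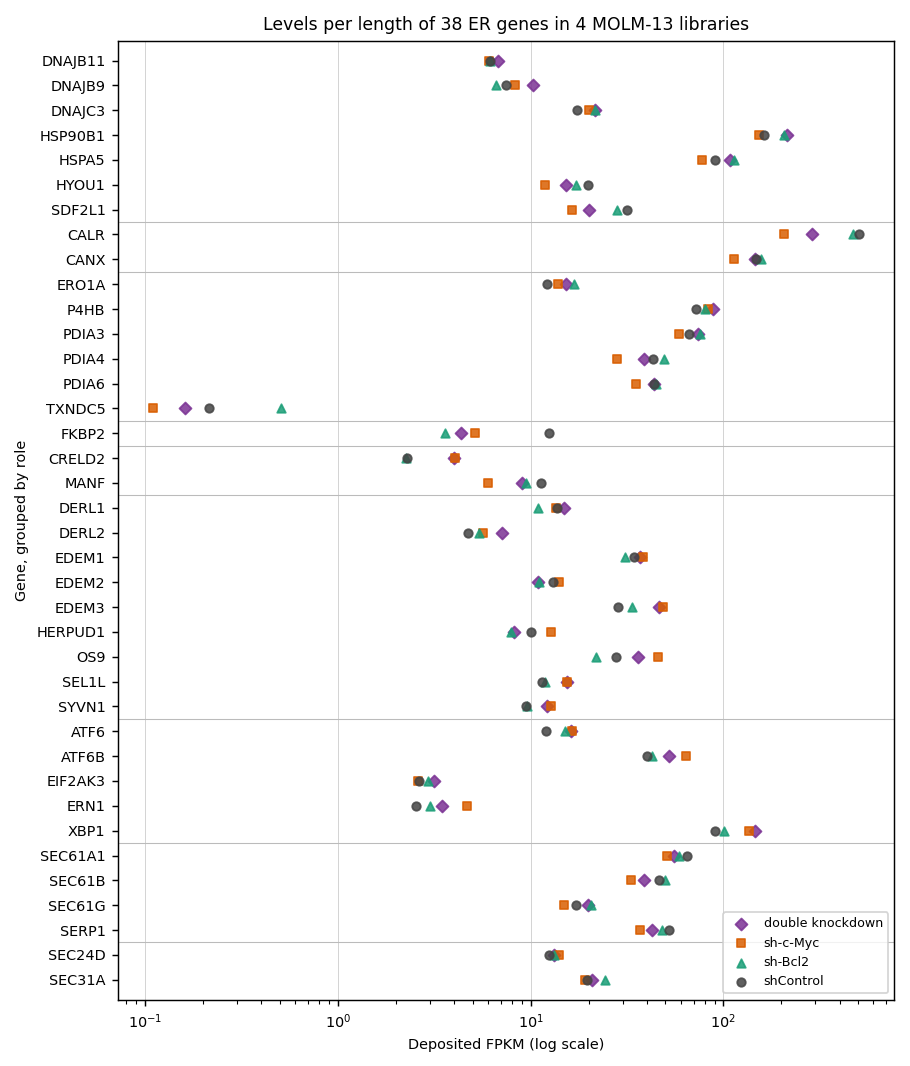
Deposited FPKM of the 38 genes (log axis), 1 symbol per library, grouped by role from chaperones at the top to COPII coat genes at the bottom. CALR shows the spread between libraries at the abundant end (206 FPKM in sh-c-Myc and 506 FPKM in shControl), FKBP2 is apart in shControl only, and most other genes keep their 4 symbols close together.

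Within a gene, levels are given as read counts relative to the TMM-scaled library size (CPM), and ratios between libraries as log2 ratios or folds. Brackets after a value hold its 95% interval, which covers counting error only, since a group of 1 library gives no replicate check. In bulk RNA, fewer cells of one kind and less RNA per cell cannot be told apart. The words called higher and called lower are used of a gene that differed 2-fold or more between the libraries compared, whose interval excluded equality and that reached 1 CPM in some library. All 38 genes met that last condition, as did 13646 genes of the table.

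In sh-c-Myc, CALR, SDF2L1, MANF and other folding genes lay below shControl while OS9, EDEM3, ERN1 and XBP1 lay above it by less than 2-fold. The share called lower was near that of the whole transcriptome, and the share called higher was under it. Called lower were 4 of the 38 genes (10.5%), CALR, SDF2L1, MANF and FKBP2, beside 9.86% of all genes. No member was called higher, beside 12.5% of all genes. The 38 genes had a median log2 ratio of −0.20, against −0.02 over all genes, and 13 of them lay above 0, a share of 34.2% beside 48.7% of all genes. Among the 9063 genes that average at least 10 CPM the median was −0.14, so abundant genes in general lay below 0 in this comparison; the 37 members among them had a median of −0.19. Of those 9063 genes 4.57% were called higher and 10.6% lower, near the members' share of lower calls.

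CALR, at chr19:12938578-12944489 (GRCh38, plus strand), stood farthest below shControl. It had 777 CPM in the double knockdown, 516 CPM in sh-c-Myc, 1318 CPM in sh-Bcl2 and 1444 CPM in shControl. Both libraries with the c-Myc hairpin lay well below both without it, and sh-c-Myc was lowest, 2.80-fold [2.73 to 2.87] below shControl. CANX, the membrane-bound partner of calreticulin in the same glycoprotein folding cycle, was at 905, 654, 1014 and 967 CPM in the double knockdown, sh-c-Myc, sh-Bcl2 and shControl. Its sh-c-Myc library was 1.48-fold [1.44 to 1.52] below shControl, a smaller gap than that of CALR. Per length, CALR was 1.97 times as abundant as CANX in the double knockdown and 1.81 times in sh-c-Myc, against 2.98 times in sh-Bcl2 and 3.43 times in shControl.

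Of the 7 other chaperones and co-chaperones, 6 lay below 0 in sh-c-Myc against shControl. SDF2L1 (chr22:21642261-21644298, plus strand), which forms a complex with the co-chaperone DNAJB11, had 21.8 CPM in the double knockdown, 16.7 CPM in sh-c-Myc, 31.8 CPM in sh-Bcl2 and 36.5 CPM in shControl, and sh-c-Myc was 2.19-fold [1.88 to 2.55] below shControl. HYOU1, a large HSP70-like chaperone that also acts as a nucleotide exchange factor for BiP, had 117, 84.5, 138 and 160 CPM in the same order of libraries. Its sh-c-Myc level was 1.90-fold [1.77 to 2.03] below shControl, just short of the 2-fold limit. BiP itself, the HSP70 of the ER, moved less: HSPA5 had 417 CPM in the double knockdown, 280 CPM in sh-c-Myc, 460 CPM in sh-Bcl2 and 372 CPM in shControl. That placed sh-c-Myc 1.33-fold [1.28 to 1.38] below shControl, with the double knockdown above it. The J-domain partners of BiP differed little, with log2 ratios of −0.21 for DNAJB11, −0.03 for DNAJB9 and 0.03 for DNAJC3.

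The disulfide enzymes form and reshuffle cysteine bonds in newly made chains. PDIA4 had 126 CPM in the double knockdown, 85.2 CPM in sh-c-Myc, 167 CPM in sh-Bcl2 and 149 CPM in shControl, and sh-c-Myc was 1.75-fold [1.63 to 1.88] below shControl. PDIA6 and PDIA3 followed with log2 ratios of −0.50 and −0.36. The founding member of the family, P4HB, and ERO1A, the oxidase that recharges it, were level, with log2 ratios of 0.02 [−0.03 to 0.08] and −0.00 [−0.11 to 0.10]. All 4 translocon genes were below shControl in sh-c-Myc, with a median log2 ratio of −0.60. SEC61B, a small subunit of the channel, had 45.9 CPM in the double knockdown, 36.4 CPM in sh-c-Myc, 61.7 CPM in sh-Bcl2 and 58.2 CPM in shControl. SERP1, which binds the channel and was described as protecting membrane proteins under stress, had 242, 195, 287 and 315 CPM in that order. The low library was again sh-c-Myc, at 1.60-fold [1.43 to 1.78] below shControl for SEC61B and 1.61-fold [1.54 to 1.69] for SERP1.

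A pair of small proteins that are secreted from stressed cells went opposite ways. MANF (chr3:51385047-51389397, plus strand), a neurotrophic factor that binds BiP, had 21.3 CPM in the double knockdown, 13.2 CPM in sh-c-Myc, 23.3 CPM in sh-Bcl2 and 28.5 CPM in shControl, with sh-c-Myc 2.15-fold [1.82 to 2.56] below shControl. CRELD2 had 20.4 CPM in the double knockdown, 19.4 CPM in sh-c-Myc, 12.1 CPM in sh-Bcl2 and 12.4 CPM in shControl. Both libraries with the c-Myc hairpin thus lay above both without it for CRELD2, and sh-c-Myc was 1.57-fold [1.30 to 1.91] above shControl. The FPKM of CRELD2 over that of MANF was 0.442 in the double knockdown, 0.679 in sh-c-Myc, 0.239 in sh-Bcl2 and 0.20 in shControl.

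The 9 ERAD genes among the members leaned to the other side in sh-c-Myc against shControl. Of them 6 lay above 0 (66.7%, beside 48.7% of all genes), with a median log2 ratio of 0.16. ERAD genes outside the list, given below, did not share this. OS9 (chr12:57693955-57721557, plus strand), a lectin that hands misfolded glycoproteins to the ubiquitin ligase, had 186 CPM in the double knockdown, 218 CPM in sh-c-Myc, 117 CPM in sh-Bcl2 and 150 CPM in shControl. EDEM3, which trims mannose from glycoproteins marked for degradation, had 359 CPM in the double knockdown, 351 CPM in sh-c-Myc, 273 CPM in sh-Bcl2 and 234 CPM in shControl. Against shControl, sh-c-Myc was 1.45-fold [1.37 to 1.53] higher for OS9 and 1.50-fold [1.44 to 1.57] higher for EDEM3. The related EDEM1 and EDEM2 did not share this, with log2 ratios of −0.03 [−0.09 to 0.04] and −0.08 [−0.29 to 0.13]. The ubiquitin ligase SYVN1 and its partner SEL1L both had a log2 ratio of 0.25, and the channel candidates DERL1 and DERL2 had −0.19 and 0.07.

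Of the stress sensors and XBP1, 4 of 5 lay above 0. XBP1, the transcription factor whose mRNA is spliced by IRE1, had 439 CPM in the double knockdown, 379 CPM in sh-c-Myc, 316 CPM in sh-Bcl2 and 288 CPM in shControl. Counts per gene do not separate its spliced from its unspliced form. ERN1 had 37.2 CPM in the double knockdown, 47.0 CPM in sh-c-Myc, 33.7 CPM in sh-Bcl2 and 29.1 CPM in shControl, and sh-c-Myc was 1.61-fold [1.43 to 1.83] above shControl. ATF6B, a homologue of ATF6, had 189, 216, 160 and 154 CPM in that order. The exception was EIF2AK3, whose log2 ratio of −0.20 [−0.49 to 0.08] did not exclude equality. For every gene of this group except EIF2AK3, both libraries with the c-Myc hairpin were above shControl. The sh-Bcl2 library, too, was above shControl for all 5, with a median log2 ratio of 0.14. For ATF6 it had 123 CPM, beside 120 CPM in sh-c-Myc.

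**Figure D2:**
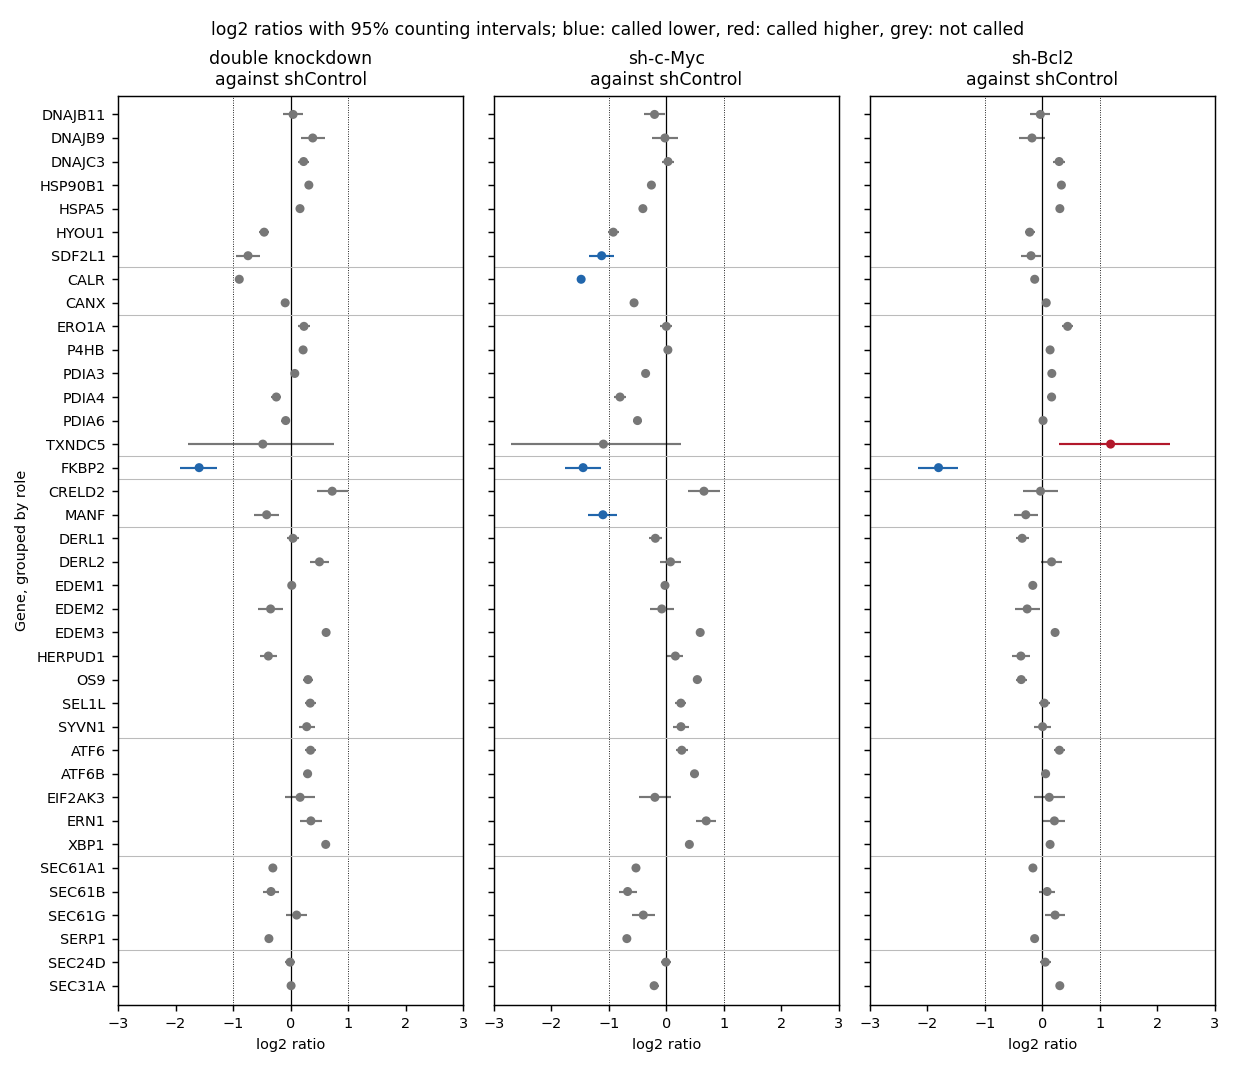
log2 ratios of the 38 genes for the double knockdown, sh-c-Myc and sh-Bcl2, each over the same shControl library, with 95% intervals for counting error (lines). Dotted lines mark 2-fold; blue points were called lower and red points higher. In the sh-c-Myc panel CALR, SDF2L1, MANF and FKBP2 are blue, and EDEM3, OS9, ERN1, ATF6B and XBP1 lie to the right of 0. Most folding genes lie to the left, but DNAJC3, P4HB, ERO1A and DNAJB9 lie close to 0.

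The 2 by 2 layout allows 1 test per hairpin, since each hairpin is present in 2 libraries and absent from 2. The fit has no interaction term, so for some genes its change lies between unlike ratios. The log2 ratio for the c-Myc hairpin was −1.48 without and −0.76 with the Bcl-2 hairpin for CALR, and −1.11 and −0.13 for MANF. Such gaps and the spread between libraries are not separated, and no replicate spread was measured. In edgeR's quasi-likelihood fit over 12885 genes, 37 of the 38 members were tested and TXNDC5 was too low. With the c-Myc hairpin 6 members fell (16.2%, beside 15.9% of all genes) and 4 rose (10.8%, beside 13% of all genes) at a Benjamini-Hochberg adjusted p under 0.05. CALR fell by 1.08 on the log2 scale (edgeR adjusted p = 0.000208), SDF2L1 by 0.79 (adjusted p = 0.00229) and PDIA4 by 0.57 (adjusted p = 0.00596). HYOU1 fell by 0.54 (adjusted p = 0.0113), SEC61B by 0.51 (adjusted p = 0.0198) and MANF by 0.57 (adjusted p = 0.0483). The genes that rose were OS9 by 0.64 (edgeR adjusted p = 0.00198), CRELD2 by 0.74 (adjusted p = 0.012), EDEM3 by 0.53 (adjusted p = 0.0162) and XBP1 by 0.48 (adjusted p = 0.0343). SERP1 (adjusted p = 0.0514), ATF6B (0.0555) and ERN1 (0.0573) stood just outside the threshold. CALR, SDF2L1, PDIA4, OS9 and EDEM3 passed with every tool and scaling run. The other 5 missed the threshold under DESeq2, which called 3 members lower and 2 higher, beside 2066 of 12885 genes in either direction.

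Of the exonic bases of CALR and OS9, 9.95% and 13.5% overlap antisense genes; SDF2L1, MANF, PDIA4, EDEM3 and XBP1 overlap none.

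The 2 libraries with the c-Myc hairpin both lay above the 2 without it for 8 of the 38 genes, beside 30.6% of all genes, and both below for 12, beside 33% of all genes. These shares of 21.1% and 31.6% are at or under the background of a hairpin that moved much of the transcriptome. The direction of the log2 ratio was the same without and with the Bcl-2 hairpin for 30 of 38 members (78.9%), beside 77.3% of all genes. The summed level of the myeloid markers moved with the same hairpin, but not each of the 12 rose. MPO had 660 CPM in the double knockdown and 652 CPM in sh-c-Myc, against 164 CPM in sh-Bcl2 and 131 CPM in shControl. MEIS1 had 25.5 CPM in the double knockdown and 27.2 CPM in sh-c-Myc, against 29.2 CPM in sh-Bcl2 and 38.2 CPM in shControl. HOXA9 lay between 48.1 and 60.5 CPM. The part of these markers in the ER results was not tested. Scaling to total counts moved the all-gene median of sh-c-Myc against shControl to 0.16 and that of the members to −0.01, which leaves the gap between them as it was, since this scaling adds the same amount to every gene. SDF2L1 and MANF dropped under 2-fold with it (log2 ratios of −0.94 and −0.92), and 18 members lay above 0, beside 59.3% of all genes.

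**Figure D3:**
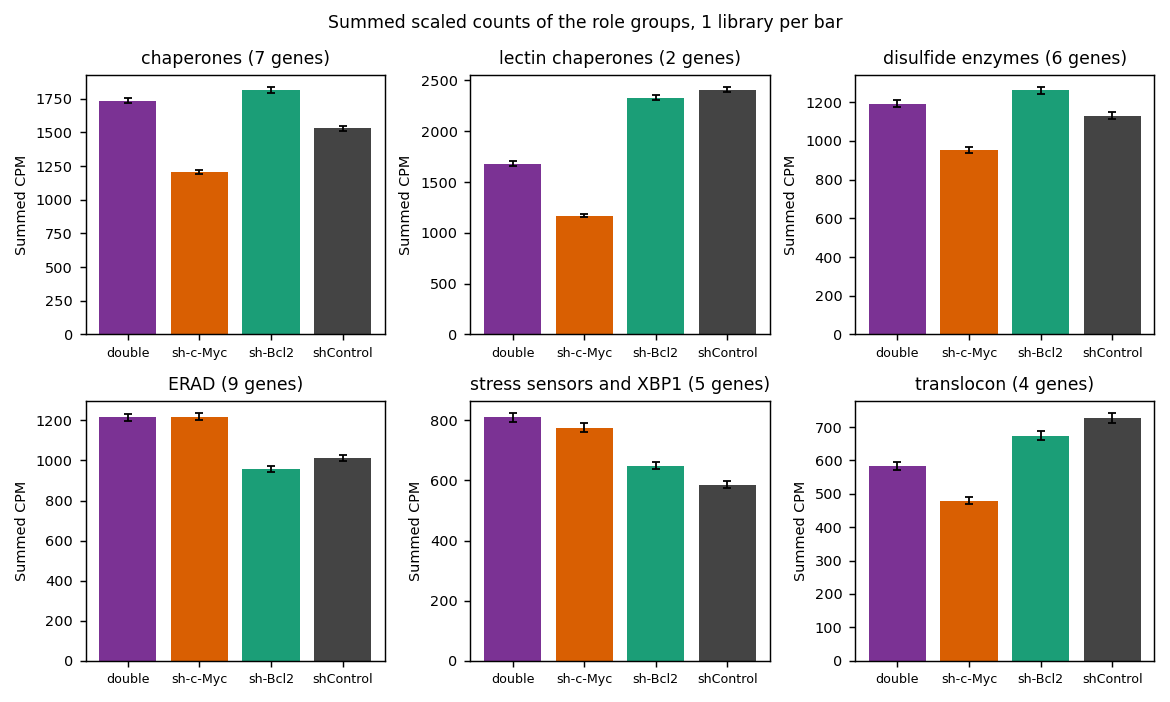
Summed CPM of 6 role groups in the double knockdown, sh-c-Myc, sh-Bcl2 and shControl (left to right), 1 library per bar; error bars are exact 95% Poisson intervals and cover counting error only. Lectin chaperones summed to 1682, 1170, 2332 and 2411 CPM and ERAD genes to 1215, 1218, 959 and 1012 CPM in that order of libraries.

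Summed by role, the lectin chaperones, the translocon, the ERAD genes and the sensors with XBP1 divided the libraries by the c-Myc hairpin. The translocon genes summed to 583 CPM in the double knockdown and 479 CPM in sh-c-Myc, against 674 CPM in sh-Bcl2 and 727 CPM in shControl. The sensors with XBP1 summed to 809 CPM in the double knockdown and 775 CPM in sh-c-Myc, against 649 CPM in sh-Bcl2 and 586 CPM in shControl. The 7 chaperones had another pattern, with 1737 CPM in the double knockdown, 1206 CPM in sh-c-Myc, 1817 CPM in sh-Bcl2 and 1530 CPM in shControl. Here sh-c-Myc alone was below shControl, and both libraries with the Bcl-2 hairpin were above it. HSP90B1 and HSPA5 hold most of these sums. Gene by gene, the 7 had a median log2 ratio of −0.03 in sh-Bcl2 against shControl, with 4 below 0. All 38 genes together came to 7586 CPM in the double knockdown, 6131 CPM in sh-c-Myc, 8100 CPM in sh-Bcl2 and 7776 CPM in shControl. Without CALR the remaining 37 genes summed to 6809 CPM in the double knockdown, 5615 CPM in sh-c-Myc, 6783 CPM in sh-Bcl2 and 6332 CPM in shControl. As a share of all counts, which is total-count scaling, sh-c-Myc stayed lowest with CALR included, but without CALR the order of the lowest libraries turned, with 0.607% in sh-c-Myc and 0.602% in shControl.

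With both hairpins present, fewer ER genes were called against shControl than in sh-c-Myc. Of all genes, too, fewer were called than the 12.5% higher and 9.86% lower in sh-c-Myc. Single genes went either way: CALR, SDF2L1, HYOU1 and MANF lay closer to shControl than in sh-c-Myc, and XBP1, DERL2 and HERPUD1 farther from it. Only FKBP2 was called lower in the double knockdown (1 of 38, beside 5.99% of all genes) and none higher (beside 7.1%). The median log2 ratio of the members was 0.06 and that of all genes −0.01, and 23 members (60.5%) lay above 0, beside 49.2% of all genes. With a GC and length trend removed 20 members (52.6%) lay above 0, beside 48.2% of all genes. CALR was still 1.86-fold [1.82 to 1.90] and SDF2L1 1.67-fold [1.46 to 1.92] below shControl. HYOU1 was 1.38-fold [1.29 to 1.46] and MANF 1.34-fold [1.15 to 1.55] below it. On the other side stood CRELD2 at 1.65-fold [1.37 to 2.0] above shControl and XBP1 at 1.53-fold [1.47 to 1.59]. EDEM3 was likewise 1.53-fold [1.47 to 1.60] above, and DERL2 1.42-fold [1.26 to 1.60]. These ratios use the same shControl library as those of the single knockdowns and are no separate evidence.

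By the labels, the double knockdown and sh-c-Myc differ in the Bcl-2 hairpin, and nearly all folding genes were more abundant in the double knockdown. Of the 38 members 32 lay above 0 (84.2%), beside 52.9% of all genes, with a median log2 ratio of 0.23, beside 0.03 over all genes. With total-count scaling 25 members lay above 0 (65.8%), beside 43.0% of all genes, and the medians were 0.13 and −0.07. Intervals excluded equality for 25 members above and 5 below 0, beside 4305 and 3090 of all 13646 genes. Among the 9063 genes averaging at least 10 CPM they did so for 3951 above and 1884 below 0. No member reached 2-fold in either direction, beside 1.66% of all genes called higher and 4.7% called lower. At 10 CPM or more those shares were 0.883% and 0.287%. Among genes averaging at least 10 CPM the median was 0.10 and 63.2% were above 0, against 0.23 and 83.8% of the 37 members at that level. All 7 chaperones, both lectin chaperones, all 6 disulfide enzymes and all 4 translocon genes were above 0. DNAJC3 was no longer so with a GC and length trend removed (log2 ratio of −0.02). HSPA5, at 417 CPM in the double knockdown and 280 CPM in sh-c-Myc, was 1.49-fold [1.43 to 1.55] higher. HSP90B1, at 995 CPM in the double knockdown and 666 CPM in sh-c-Myc, was 1.49-fold [1.46 to 1.53] higher. CALR was 1.51-fold [1.46 to 1.55] and MANF 1.61-fold [1.35 to 1.93] higher in the double knockdown. The ERAD genes did not join them as a group, with a median log2 ratio of 0.03. HERPUD1, a stress-induced ERAD adaptor, had 41.8 CPM in the double knockdown and 60.9 CPM in sh-c-Myc, 1.46-fold [1.32 to 1.61] lower, and ERN1 was 1.26-fold [1.13 to 1.41] lower.

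The same hairpin on its own gave smaller differences. In sh-Bcl2 against shControl the members had a median log2 ratio of 0.06, with −0.00 over all genes, and 23 of 38 (60.5%) lay above 0, beside 50% of all genes. TXNDC5 was called higher (1 of 38, beside 2.45%) and FKBP2 lower (1 of 38, beside 2.16%). HSPA5 had 460 CPM in sh-Bcl2 and 372 CPM in shControl, 1.24-fold [1.19 to 1.28] higher. HSP90B1 had 1006 CPM in sh-Bcl2 and 799 CPM in shControl, 1.26-fold [1.23 to 1.29] higher. ERO1A had 131 CPM in sh-Bcl2 and 96.7 CPM in shControl, 1.36-fold [1.27 to 1.46] higher, the largest gap among the other folding enzymes. Lower in sh-Bcl2 were HERPUD1 by 1.29-fold [1.16 to 1.44], OS9 by 1.29-fold [1.21 to 1.37] and DERL1 by 1.28-fold [1.18 to 1.38].

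Over both backgrounds, the 2 libraries with the Bcl-2 hairpin lay above the 2 without it for 11 of 38 members (28.9%), beside 11.4% of all genes. These were HSPA5, HSP90B1, DNAJC3, PDIA3, P4HB, ERO1A, SEC61G, SEC31A, DERL2, ATF6 and EIF2AK3, of which the first 6 belong to the chaperones and disulfide enzymes. FKBP2, EDEM2 and HERPUD1 lay below in both (3 of 38, beside 11.4% of all genes). Neither share was taken among genes averaging at least 10 CPM, or with a GC and length trend removed. The log2 ratio had the same sign without and with the c-Myc hairpin for 25 of 38 members (65.8%), beside 55.2% of all genes. In edgeR's fit no member passed for the Bcl-2 hairpin in either direction, beside 0.109% of all genes that rose and 0.21% that fell. At an unadjusted p under 0.05 there were 5 members, HSP90B1, HSPA5, PDIA4, HERPUD1 and FKBP2, a share of 13.5% beside 9.20% of all genes. DESeq2 gave 4 (10.8%, beside 3.17%) and limma-voom 7 (18.9%, beside 9.38%), and none passed adjustment with either tool. HSPA5 had a fitted log2 change of 0.42 (edgeR adjusted p = 0.421) and HSP90B1 of 0.44 (adjusted p = 0.501). GC content moved with both of these comparisons: Spearman's rho of the log2 ratio with exonic GC over 13646 genes was −0.25 for the double knockdown over sh-c-Myc and −0.29 for sh-Bcl2 over shControl. With a GC and length trend removed, the members' median for the double knockdown over sh-c-Myc was 0.18, beside 0.01 over all genes, and 28 of 38 lay above 0.

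**Figure D4:**
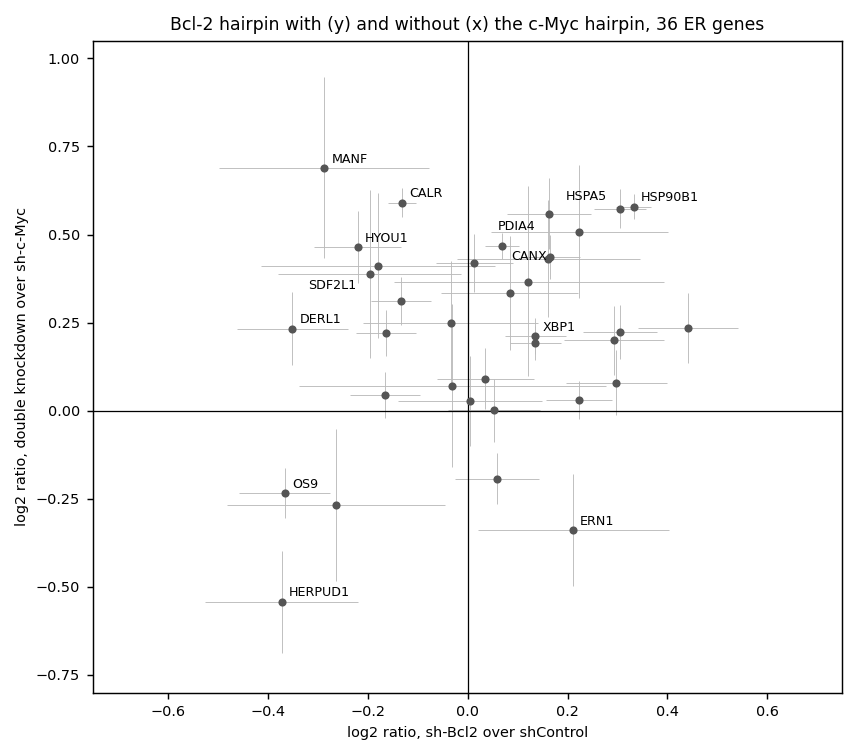
log2 ratio of the double knockdown over sh-c-Myc (vertical axis) against that of sh-Bcl2 over shControl (horizontal axis) for 36 members; grey lines are 95% counting intervals, and TXNDC5 and FKBP2 fall outside the range. Most points lie above the horizontal zero line, HSPA5 and HSP90B1 are above 0 on both axes, HERPUD1 and OS9 are below 0 on both, and CALR, MANF, HYOU1 and SDF2L1 are in the upper left.

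The c-Myc hairpin was also compared with the Bcl-2 hairpin present in both libraries. Against sh-Bcl2, the double knockdown had 17 of 38 members above 0 (44.7%), beside 49.3% of all genes, and a median log2 ratio of −0.04, with −0.01 over all genes. No member was called higher (beside 5.21%), and TXNDC5 alone was called lower (beside 3.63%). The genes farthest apart, TXNDC5 aside, were CALR, with a log2 ratio of −0.76, CRELD2 with 0.75 and OS9 with 0.67. The members' median turned to 0.03 with total-count scaling, so no direction of the group as a whole can be given here.

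How far the hairpins depart from adding up was taken as the double knockdown's log2 ratio less the sum of those of both single knockdowns. It was above 0 for 27 of 38 members (71.1%), beside 54.6% of all genes, with a median of 0.25, beside 0.05. Among genes averaging at least 10 CPM, 62.7% were above 0 with a median of 0.11. With total-count scaling 22 members were above 0 (57.9%, beside 43.9% of all genes) and their median was 0.12, beside −0.07. FKBP2 was the only member whose departure reached 1 on this scale (1 of 38 higher, beside 3.04% of all genes; 0 lower, beside 5.73%, or 0.960% at 10 CPM or more). MANF came next at 0.98 [0.65 to 1.30], followed by CALR at 0.72 [0.67 to 0.77] and HYOU1 at 0.68 [0.55 to 0.82]. For these 3 genes the Bcl-2 hairpin went with a lower level in cells without the c-Myc hairpin and a higher level in cells with it. Of the sensors, ERN1 at −0.55 [−0.79 to −0.31], ATF6B at −0.25 [−0.36 to −0.14] and ATF6 at −0.22 [−0.35 to −0.08] were below 0, and EIF2AK3, at 0.24 [−0.13 to 0.62], was not.

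FKBP2 (chr11:64241003-64244132, plus strand), a prolyl isomerase of the ER lumen, differed in 1 library. It had 6.97 CPM (109 reads) in the double knockdown, 7.70 CPM (120 reads) in sh-c-Myc, 6.01 CPM (91 reads) in sh-Bcl2 and 21.1 CPM (297 reads) in shControl. The 3 knockdown libraries lay together and shControl stood apart, by 3.01-fold [2.42 to 3.80], 2.73-fold [2.21 to 3.41] and 3.49-fold [2.76 to 4.49] in that order. Among the knockdown libraries no difference was detectable, the double knockdown having log2 ratios of −0.14 [−0.53 to 0.24] over sh-c-Myc and 0.21 [−0.20 to 0.63] over sh-Bcl2, and sh-c-Myc one of 0.35 [−0.05 to 0.77] over sh-Bcl2. Each of its calls, the departure of 1.66 [1.16 to 2.17] included, therefore rests on the shControl library. Its exons overlap no other annotated gene. TXNDC5 is uncertain for another reason: 60.6% of its exonic bases are shared with the BLOC1S5-TXNDC5 readthrough gene, and it had 11 reads in the double knockdown, 7 in sh-c-Myc, 35 in sh-Bcl2 and 14 in shControl. Its call in sh-Bcl2 is 2.28-fold [1.22 to 4.68].

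Many ER chaperone genes carry an ER stress element near their start, in which CCAAT, bound by NF-Y, and CCACG, bound by ATF6 or XBP1, are separated by 9 bases. RefSeq promoter windows of 300 bases (250 before the start and 50 after it, GRCh38.p14) were available for 35 of the 38 genes, in 50 windows. On either strand, the element was found in 8 of these genes (22.9%), and in 25 of all 27305 genes of the promoter set (0.0916%). The 8 are CALR, CANX, CRELD2, HSP90B1, HSPA5, PDIA6, SERP1 and XBP1. In sh-c-Myc against shControl they had a median log2 ratio of −0.46, with 6 of 8 below 0, and the 27 members with a window and no element a median of −0.03. With the double knockdown set against sh-c-Myc, all 8 were above 0, with a median of 0.44, while 21 of the 27 others were above 0, with a median of 0.22. The 8 include the most abundant members, and genes averaging at least 10 CPM had medians of −0.14 and 0.10 in these comparisons. Whether the gap goes with the element or with abundance was not tested. Holding the element did not fix the direction: CALR was lowest of the 8 in sh-c-Myc, at a log2 ratio of −1.48, and CRELD2 highest, at 0.65. The E-box CACGTG, which MYC binds, was found in 5 of the 35 genes (14.3%), ATF6B, CANX, DNAJB9, HERPUD1 and HSP90B1, beside 8.77% of all genes. A match describes the letters in the window and shows no binding. The windows of the 6 genes with the element that differed most from shControl in sh-c-Myc or in the double knockdown are printed here to show how the same element sits in genes that were lower and genes that were higher. CALR (chr19:12938359-12938658, plus strand), SERP1 (chr3:150546447-150546746, minus strand), CANX (chr5:179698679-179698978, plus strand) and PDIA6 (chr2:10812736-10813035, minus strand) were lower in sh-c-Myc. XBP1 (chr22:28800520-28800819, minus strand) and CRELD2 (chr22:49918384-49918683, plus strand) were higher. Capitals mark the 2 parts of the element, which read CGTGG and ATTGG where it lies on the opposite strand.
CALR: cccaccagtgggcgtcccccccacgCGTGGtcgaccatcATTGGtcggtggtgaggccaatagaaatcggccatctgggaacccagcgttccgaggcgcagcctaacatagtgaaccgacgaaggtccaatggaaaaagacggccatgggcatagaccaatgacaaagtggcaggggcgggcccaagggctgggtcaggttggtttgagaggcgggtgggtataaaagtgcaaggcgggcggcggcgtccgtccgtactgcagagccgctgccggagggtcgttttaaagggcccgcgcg
SERP1: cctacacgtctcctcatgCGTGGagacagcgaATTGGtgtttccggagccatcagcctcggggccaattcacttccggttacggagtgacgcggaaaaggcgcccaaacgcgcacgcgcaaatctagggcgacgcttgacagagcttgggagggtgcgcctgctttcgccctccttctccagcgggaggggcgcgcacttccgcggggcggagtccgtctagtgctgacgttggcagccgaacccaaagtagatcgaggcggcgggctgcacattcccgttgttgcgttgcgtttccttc
XBP1: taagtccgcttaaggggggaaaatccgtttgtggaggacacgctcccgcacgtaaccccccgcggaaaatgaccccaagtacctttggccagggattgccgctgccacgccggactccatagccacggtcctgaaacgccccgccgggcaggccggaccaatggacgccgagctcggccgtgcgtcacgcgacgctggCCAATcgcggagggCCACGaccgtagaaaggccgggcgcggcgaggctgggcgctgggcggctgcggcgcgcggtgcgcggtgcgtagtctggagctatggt
CANX: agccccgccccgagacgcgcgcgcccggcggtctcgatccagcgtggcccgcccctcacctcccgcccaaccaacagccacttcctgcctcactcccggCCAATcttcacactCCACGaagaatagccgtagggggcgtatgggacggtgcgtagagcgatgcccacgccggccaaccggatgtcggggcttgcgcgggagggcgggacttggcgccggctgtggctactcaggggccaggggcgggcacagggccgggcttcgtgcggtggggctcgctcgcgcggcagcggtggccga
CRELD2: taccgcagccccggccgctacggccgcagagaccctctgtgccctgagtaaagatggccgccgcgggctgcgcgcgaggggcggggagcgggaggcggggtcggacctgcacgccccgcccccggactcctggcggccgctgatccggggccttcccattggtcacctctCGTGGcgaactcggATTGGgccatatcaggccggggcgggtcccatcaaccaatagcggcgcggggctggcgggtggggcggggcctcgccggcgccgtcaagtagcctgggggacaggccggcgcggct
PDIA6: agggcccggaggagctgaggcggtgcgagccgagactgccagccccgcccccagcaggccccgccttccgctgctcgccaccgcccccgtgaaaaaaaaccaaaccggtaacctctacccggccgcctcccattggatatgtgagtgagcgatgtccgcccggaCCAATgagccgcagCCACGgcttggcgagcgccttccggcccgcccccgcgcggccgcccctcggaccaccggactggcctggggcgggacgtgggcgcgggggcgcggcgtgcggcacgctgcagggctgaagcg
The element lay 225 to 207 bases before the start in CALR, 232 to 214 in SERP1, 52 to 34 in XBP1, 151 to 133 in CANX, 80 to 62 in CRELD2 and 86 to 68 in PDIA6. It was on the gene's own strand in XBP1, CANX and PDIA6 and on the opposite strand in CALR, SERP1 and CRELD2.

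Other genes of the secretory pathway were counted from lists of general knowledge. The 32 other translocon, signal peptide and glycosylation genes had a median log2 ratio of −0.41 in sh-c-Myc against shControl, with 26 below 0. Genes averaging at least 10 CPM had a median of −0.14 there, with 59.9% below 0. With the double knockdown set against sh-c-Myc the list's median was 0.29, with 30 of 32 above 0. That of genes averaging at least 10 CPM was 0.10, with 63.2% above 0. In sh-c-Myc 2 of 32 were called lower (6.25%, beside 9.86% of all genes) and 1 higher (3.1%, beside 12.5%). SRPRB, a subunit of the receptor that docks ribosomes at the ER, had 28.9 CPM in sh-c-Myc and 85.5 CPM in shControl, 2.95-fold [2.65 to 3.30] lower. SEC11C, a catalytic subunit of the signal peptidase, had 16.7 CPM in sh-c-Myc and 35.4 CPM in shControl, 2.11-fold [1.82 to 2.47] lower. OST4, a small subunit of the oligosaccharyltransferase, was the only one of the list called higher there, at 7.12 CPM in sh-c-Myc and 2.48 CPM in shControl, 2.84-fold [1.94 to 4.32].

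The 28 other COPII and cargo receptor genes had a median of −0.23 when sh-c-Myc was set against shControl, and of 0.22 when the double knockdown was set against sh-c-Myc. Genes averaging at least 10 CPM had medians of −0.14 and 0.10 in these comparisons. SEC31B, a less common coat subunit, was called higher in sh-c-Myc (1 of 28, beside 12.5% of all genes). It had 97.0 CPM in sh-c-Myc and 41.0 CPM in shControl. Of the exonic bases of SRPRB, OST4 and SEC31B, 21.1%, 21.0% and 18.4% overlap other annotated genes, so part of their counts is uncertain. The 30 other folding genes had medians of −0.21 and 0.14 in those comparisons. In sh-c-Myc 2 of 30 were called lower (6.67%, beside 9.86% of all genes) and 0 higher (beside 12.5%). PRDX4, an ER peroxiredoxin that feeds oxidation equivalents into folding, had 14.8 CPM in sh-c-Myc and 41.8 CPM in shControl, 2.82-fold [2.42 to 3.30] lower. PDIA5, a further disulfide isomerase, had 8.47 CPM in sh-c-Myc and 23.4 CPM in shControl, 2.75-fold [2.25 to 3.40] lower. The 25 other ERAD genes had medians of −0.14 and 0.08 and none was called. In sh-c-Myc against shControl 9 of them lay above 0 and 16 below, unlike the ERAD genes among the members.

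The PERK arm acts through the transcription factors ATF4 and CHOP (gene DDIT3), and 26 genes of that arm met the CPM limit. Their median log2 ratio was −0.66 in the double knockdown, −0.43 in sh-c-Myc and −0.53 in sh-Bcl2, each against the same shControl. Called lower were 9 in the double knockdown, 1 in sh-c-Myc and 5 in sh-Bcl2, and none was called higher in these 3 comparisons. These are shares of 34.6%, 3.85% and 19.2%, beside 5.99%, 9.86% and 2.16% of all genes, so the share in sh-c-Myc was under that of all genes. STC2, a secreted glycoprotein and ATF4 target, had 2.94 CPM in the double knockdown, 10.3 CPM in sh-c-Myc, 18.2 CPM in sh-Bcl2 and 35.1 CPM in shControl. The double knockdown was lowest, 11.8-fold [8.80 to 16.5] below shControl. CHAC1, a glutathione-degrading enzyme induced by CHOP and ATF4, had 1.98 CPM in the double knockdown, 15.1 CPM in sh-c-Myc, 6.74 CPM in sh-Bcl2 and 14.3 CPM in shControl, so it was low where the Bcl-2 hairpin was present. ASNS, the asparagine synthetase, had 0.640 CPM in the double knockdown, 3.27 CPM in sh-c-Myc, 1.72 CPM in sh-Bcl2 and 4.54 CPM in shControl, and 44.6% of its exonic bases overlap another gene. In sh-Bcl2, DDIT3 was 2.47-fold [1.73 to 3.63] below shControl, with 2.91 CPM in sh-Bcl2 and 7.24 CPM in shControl, although 39.6% of its exonic bases overlap other genes. In both libraries with the Bcl-2 hairpin the 7 chaperones summed to more than in shControl, mostly through HSP90B1 and HSPA5. Of the 7, 4 lay below shControl in sh-Bcl2 and 2 in the double knockdown. The median log2 ratio of the PERK arm was below 0 in all 3 knockdown libraries.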

How the data were processed

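RNA-seq was run on 1 library per group of MOLM-13 cells. Per the submitters' processing notes, reads were aligned to GRCh38 with HISAT2 and counted with HTSeq 0.13.5. The annotation release, the HISAT2 version and whether strand was used are items not given in the sources used here; reads of overlapping genes cannot be told apart. The deposited table gives raw read counts per gene and FPKM, which per the file headers are 2 columns per library. Dividing the authors' counts by the deposited FPKM gave lengths that were whole within 0.01 base for 100% of values checked and, for the members, equal to GENCODE 29 exon unions. All 24940 genes have coordinates there; 25 symbols occur more than once.

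Ratios use TMM-scaled counts (edgeR 4.0.16, prior 0.5) with exact conditional binomial 95% intervals. The departure from additivity has a delta-method interval. The 2 by 2 layout was fitted with edgeR's quasi-likelihood test, 1 term per hairpin, on genes that reached 1 CPM in 2 or more libraries, adjusted by Benjamini-Hochberg over all 12885. It has 1 residual degree of freedom, which holds non-additivity and the spread between libraries together, and its prior degrees of freedom were 38.0, with a coefficient of variation of 0.145. The p-values rest on that residual and on dispersion shared between genes, and no spread between replicates was measured. DESeq2 1.42.0 and limma 3.58.1 were alternatives, as were other scalings, filters, thresholds and priors, FPKM + 1, and the removal of a loess trend on GC and length (span 0.5). Scripts were tested on simulated data. Library totals range between 14421558 and 15691129 counts.

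The members, lists and tests were chosen with earlier results of these data known. All members may be named. MYC and BCL2 check the labels, and of each companion list up to 3 called genes per comparison are named, those with the largest fold at the interval end nearest 1. Promoter windows come from RefSeq.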

Additional observations from a re-analysis of the deposited data

Results flagged for a closer look

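For 7 members the Bcl-2 hairpin went with a lower level in cells without the c-Myc hairpin and a higher level in cells with it, with counting intervals that exclude equality on both sides (18.4%, beside 6.86% of all genes and 9.90% of those averaging 10 CPM or more). The difference between the 2 backgrounds, on the log2 scale, was 0.975 for MANF (0.69 with the c-Myc hairpin, −0.29 without), 0.723 for CALR (0.59 and −0.13), 0.684 for HYOU1 (0.46 and −0.22) and 0.583 for SDF2L1 (0.39 and −0.20). It was 0.445 for SERP1 (0.31 and −0.13), 0.384 for SEC61A1 (0.22 and −0.16) and 0.584 for DERL1 (0.23 and −0.35). ERN1 went the other way (1 of 38, 2.63%, beside 3.69% of all genes), at −0.550 (−0.34 with the c-Myc hairpin, 0.21 without). The c-Myc hairpin had opposite directions for DERL1 alone, where the same difference of 0.584 parts a log2 ratio of 0.39 with the Bcl-2 hairpin from one of −0.19 without it. With a GC and length trend removed, CALR and SDF2L1 no longer showed opposite directions beyond counting error in the Bcl-2 comparison. SDF2L1 then had 0.05 without the c-Myc hairpin. DNAJB9 joined the first pattern, which left 6 members (15.8%, beside 6.41% of all genes). The opposite pattern then held for ATF6, ATF6B, EDEM3 and ERN1 (4 of 38, 10.5%, beside 4.48% of all genes). Each side is 1 library against 1, and none of these differences was tested.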

How the results depend on the processing

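No paired analysis was possible because the groups share only replicate number 1. No called value changed direction under any alternative run. With a 1.5-fold threshold the calls, with the share of all genes in brackets, were 3 higher [13.4%] and 3 lower [14.9%] in the double knockdown against shControl, 3 higher [19.8%] and 8 lower [20.5%] in sh-c-Myc against shControl, 2 higher [5.96%] with the double knockdown set against sh-c-Myc, 2 higher [10.7%] and 2 lower [10.6%] against sh-Bcl2, and 5 departures above additivity [9.97%]. Total-count scaling and FPKM + 1 each left 2 members called lower in sh-c-Myc (5.26%, beside 6.68% and 4.05% of all genes). FPKM + 1 and a filter of 5 CPM left 0 called higher in sh-Bcl2 (beside 0.359% and 0.682% of all genes). They left 0 lower in the double knockdown against sh-Bcl2 (beside 0.857% and 2.02%). TXNDC5 is too low to count there. Removing the GC and length trend gave 2 departures above additivity (2 of 38, beside 3.44% of all genes), MANF joining at 1.00. In the 2 by 2 fit of the c-Myc hairpin, total-count scaling called 12 of 37 members, 7 of them higher. Of all genes 4051 of 12885 were called there. DESeq2 called 2 members higher and 3 lower, beside 2066 of 12885 genes in either direction. With limma-voom 11 of 37 were called, beside 3775 of 12885 genes, and with no CPM filter 9 of 38, beside 3459 of 24940. MANF missed the threshold with 4 of these 5 alternatives, and XBP1 with DESeq2, its size factors and no CPM filter. HYOU1, CRELD2 and SEC61B missed it with DESeq2. Total-count scaling turned the sign of up to 7 members in a comparison, all with log2 ratios of at most 0.101 in size, and removing the trend that of up to 6, of at most 0.199.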
